A study of Mus musculus with 16 samples.

Results

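The genes described here are 45 factors of ribosome biogenesis, measured as messenger RNA in the dorsal skin of 16 mice. They were listed by name, as nucleolar factors of rRNA processing and ribosome assembly together with Myc. No cut on their values was used, but the list was made with earlier results of these data known. All 45 were listed among the 23282 rows of each count table, and all 45 were among the 14854 rows with enough counts to be tested.

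A ribosome begins in the nucleolus, where RNA polymerase I transcribes 1 long precursor that carries rRNAs of both subunits. Small nucleolar RNAs guide methylation (box C/D particles) and pseudouridylation (box H/ACA particles) of that precursor, while large assemblies of proteins fold it, cut it and send the small (40S) and large (60S) subunits on separate routes to the cytoplasm. Cells that grow and divide make many ribosomes, in the epidermis mainly the cells of the basal layer and of the growing hair follicle, and the transcription factor Myc is known to bind and activate many of the genes involved.

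The mice fell into 4 groups, with 4 mice and 1 library per mouse in each. All mice were WT male C57BL/6N animals bought at 3 weeks of age and kept for 1 week before the diets began. Cont mice ate normal chow. LowAhR mice ate for 12 weeks a diet low in ligands of the aryl hydrocarbon receptor (AhR), a receptor that senses plant and microbial compounds. Per the paper, the low AhR ligand diet group also had paper bedding free of such ligands, so diet and bedding cannot be told apart. LowAhR+AD mice ate the same diet and, once 2 weeks of it had passed, had the dorsal skin painted with 1% 2,4-dinitrochlorobenzene (DNCB) 2 times a week for 10 weeks, a model of atopic dermatitis (AD) in which a hapten provokes contact allergy. LowAhR+AD+BJ mice received both and, over the same 10 weeks, 1 g/kg/day of the herbal extract Bojungikgi-tang (BJIKT) by gavage. No group had DNCB on normal chow, so DNCB was measured only on the low AhR ligand diet, and no group had BJIKT without DNCB. Whether the other groups received vehicle on the skin or by gavage is not given in the sources used here, so DNCB and its painting, or BJIKT and its gavage, cannot be told apart.

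The letters CACGTG, the E-box that Myc and its partner Max are known to prefer, were looked for in the promoters of these genes, because the set includes Myc itself. The windows were the 250 bases before and 50 bases after the RefSeq start of each gene in GRCm38.p6, the same assembly as mm10, and the motif reads the same on both strands. Of the 38 genes with a window, 9 held it (23.7%), against 18 of 95 other ribosome biogenesis genes with a window (18.9%). The share was 9.17% of the 17217 genes with a window that the count tables list, and 8.09% of all 27025 genes with a window. Myc, Npm1, Fbl, Rrp12, Bop1, Gnl2 and Rrs1 had no window. Part of each of the 9 windows is given here, with the motif in capitals, for the genes that rose in some comparison below (Imp4, Nop2, Mybbp1a, Pno1, Tsr1 and Wdr43) and then for those that did not (Utp18, Utp20 and Pes1).
Imp4: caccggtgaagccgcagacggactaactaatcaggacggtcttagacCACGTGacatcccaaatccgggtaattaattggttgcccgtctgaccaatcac
Nop2: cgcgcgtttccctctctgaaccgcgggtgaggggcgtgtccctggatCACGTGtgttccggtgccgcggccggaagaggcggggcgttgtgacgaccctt
Mybbp1a: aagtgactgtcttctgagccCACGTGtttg
Pno1: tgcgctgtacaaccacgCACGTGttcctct
Tsr1: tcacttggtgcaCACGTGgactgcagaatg
Wdr43: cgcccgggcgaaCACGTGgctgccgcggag
Utp18: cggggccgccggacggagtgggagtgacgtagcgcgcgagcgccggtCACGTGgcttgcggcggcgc
Utp20: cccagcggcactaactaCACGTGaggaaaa
Pes1: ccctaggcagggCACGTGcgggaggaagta
The stretch of Imp4 lies at chr1:34439661-34439760, that of Nop2 at chr6:125131776-125131875 and that of Mybbp1a at chr11:72441347-72441376, all on the plus strand. Those of Tsr1 (chr11:74898092-74898121), Wdr43 (chr17:71616220-71616249) and Pes1 (chr11:3963965-3963994) are also on the plus strand, and those of Pno1 (chr11:17211540-17211569), Utp18 (chr11:93885767-93885833) and Utp20 (chr10:88826765-88826794) on the minus strand. The motif lay before the RefSeq start in Imp4, Nop2 and Utp18 and just after it in the other 6. By the outcome of the tests, the motif was held by 6 of the 22 genes with a window that rose in any comparison (27.3%). It was held by 3 of the 16 that did not rise (18.8%), a difference of few genes that was not tested.

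Library totals ran from 7080508 to 8773876 counts without DNCB and from 10614393 to 13467477 with DNCB, so the groups with DNCB were sequenced more deeply. Levels are given in CPM, the count of a gene relative to its library total after scaling between libraries. QuantSeq reads a short stretch at the 3′ end of each transcript, about 1 fragment per molecule, so no correction for length was needed. LowAhR+AD replicate 1 stood apart, with no count in 32.6% of the rows where the other libraries of its group predicted 20 to 40 counts, against 1.03% to 13.8% in the other 15 libraries. Among the 45 genes it gave the highest value of its group in 23 and the lowest in 13. LowAhR+AD+BJ replicate 3 was the lowest of its group in 28 of the 45, and LowAhR replicate 4 the highest of its group in 23. The keratinocyte markers of the basal and suprabasal epidermis had counts in every library, as skin should. In whole tissue, more cells of a type and more RNA per cell cannot be told apart.

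The 45 genes together made up 0.268% to 0.318% of all counts in the libraries without DNCB and 0.323% to 0.492% in those with DNCB, with no overlap. Npm1 and Ncl weighed most in this share, at means of 922 and 919 CPM over the 16 libraries, followed by Nop58 at 204 CPM. The median of the 45 log2 levels, each taken relative to the Cont mean of its gene, was 0.89, 0.93, 0.62 and 0.83 in the LowAhR+AD libraries and 0.78, 0.96, 0.36 and 0.86 in the LowAhR+AD+BJ libraries. In LowAhR it was 0.13, -0.13, -0.04 and 0.47. LowAhR+AD+BJ replicate 3, at 0.36, was thus below LowAhR replicate 4, at 0.47, and every other library with DNCB was above every library without it. Over all 14854 tested genes the same median stayed between -0.08 and 0.15 in the 16 libraries.

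**Figure D1:**
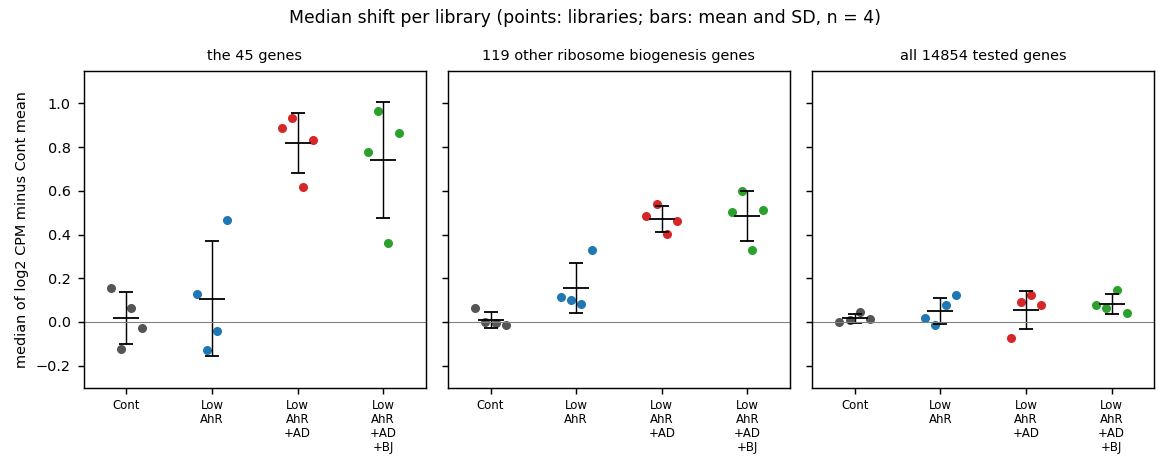
Each point is 1 library and gives the median, over the genes of the panel, of log2 CPM minus the Cont mean of the gene, with the group on the horizontal axis and bars for the mean and SD of 4 libraries. The 45 genes sit between 0.62 and 0.93 in LowAhR+AD and between 0.36 and 0.96 in LowAhR+AD+BJ, the 119 other ribosome biogenesis genes show smaller shifts, and all 14854 tested genes stay near 0.

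Which of these genes changed with DNCB on the low AhR ligand diet was read from LowAhR+AD against LowAhR. Of the 45, 14 rose and 0 fell (edgeR quasi-likelihood test, Benjamini-Hochberg adjusted over all tested genes), which is 31.1% beside a background of 6.42% of all tested genes called higher and 6.21% called lower. The median log2 fold change was 0.83 over the 45 and 0.04 over all tested genes, and 42 of the 45 estimates were above 0. In 21 genes every LowAhR+AD library was above every LowAhR library, against 8.92% of all genes. The 14 were Nop16, Bop1, Rrs1, Imp4, Noc2l, Mybbp1a, Mrto4, Nhp2, Gnl3, Nolc1, Nop56, Nop58, Dkc1 and Tsr1. Leaving out LowAhR replicate 2, LowAhR replicate 3 or LowAhR+AD replicate 2 lowered the count to 9, 7 and 8, and a model of these 8 libraries alone called 4. Imp4, Bop1, Nop16, Noc2l and Rrs1 were called in all 8 fits that left out 1 library.

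Cont differed from the groups with DNCB in diet and bedding as well. Against Cont, 18 of the 45 rose in LowAhR+AD (40%, beside 12.3% of all tested genes). There 0 fell (9.47% of all genes), and the median log2 fold change was 0.89. In 22 genes the groups did not overlap, LowAhR+AD being higher (12.9% of all genes). After BJIKT, 9 of the 45 were higher in LowAhR+AD+BJ than in LowAhR (20%, beside 3.64% of all genes) and 18 were higher than in Cont (40%, beside 11.2%), with median log2 fold changes of 0.64 and 0.74. None was lower, beside 3.12% and 8.62% of all genes. Groups without overlap were seen in 11 genes against LowAhR and 17 against Cont, all with LowAhR+AD+BJ higher, beside 8.91% and 15.3% of all genes. Those 9 became 2 to 5 when LowAhR replicate 1, 2 or 3 or LowAhR+AD+BJ replicate 1, 2 or 4 was left out. The 18 against Cont became 11 when Cont replicate 2 or LowAhR+AD+BJ replicate 1 was left out, and 8 when LowAhR+AD+BJ replicate 2 was.

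The comparison of LowAhR+AD with LowAhR shares no library with that of LowAhR+AD+BJ with Cont. The 2 had 7 risen genes in common, namely Nop56, Nop58, Nhp2, Tsr1, Nop16, Gnl3 and Mrto4, which is 50% of the first 14 and 38.9% of the other 18. Of all 45, 40% were called in the latter comparison and 31.1% in the former, so these shares are near those of the whole list. The remaining pair, LowAhR+AD with Cont and LowAhR+AD+BJ with LowAhR, shares none either and had Nop58, Nhp2, Imp4, Pno1 and Rrs1 in common, 27.8% of the 18 and 55.6% of the 9, beside 20% and 40% of all 45. Over the 4 comparisons of a DNCB group with a group without DNCB, 26 of the 45 genes rose at least once (beside 17.1% of all tested genes) and 19 never did. Nop58 and Nhp2, 2 of the 45, rose in all 4, as did 1.93% of all tested genes. In Nop58, Nhp2, Nop16 and Gnl3 all 8 libraries with DNCB were above all 8 without it, which is 4 of 45 (8.89%) beside 2.65% of all tested genes.

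**Figure D2:**
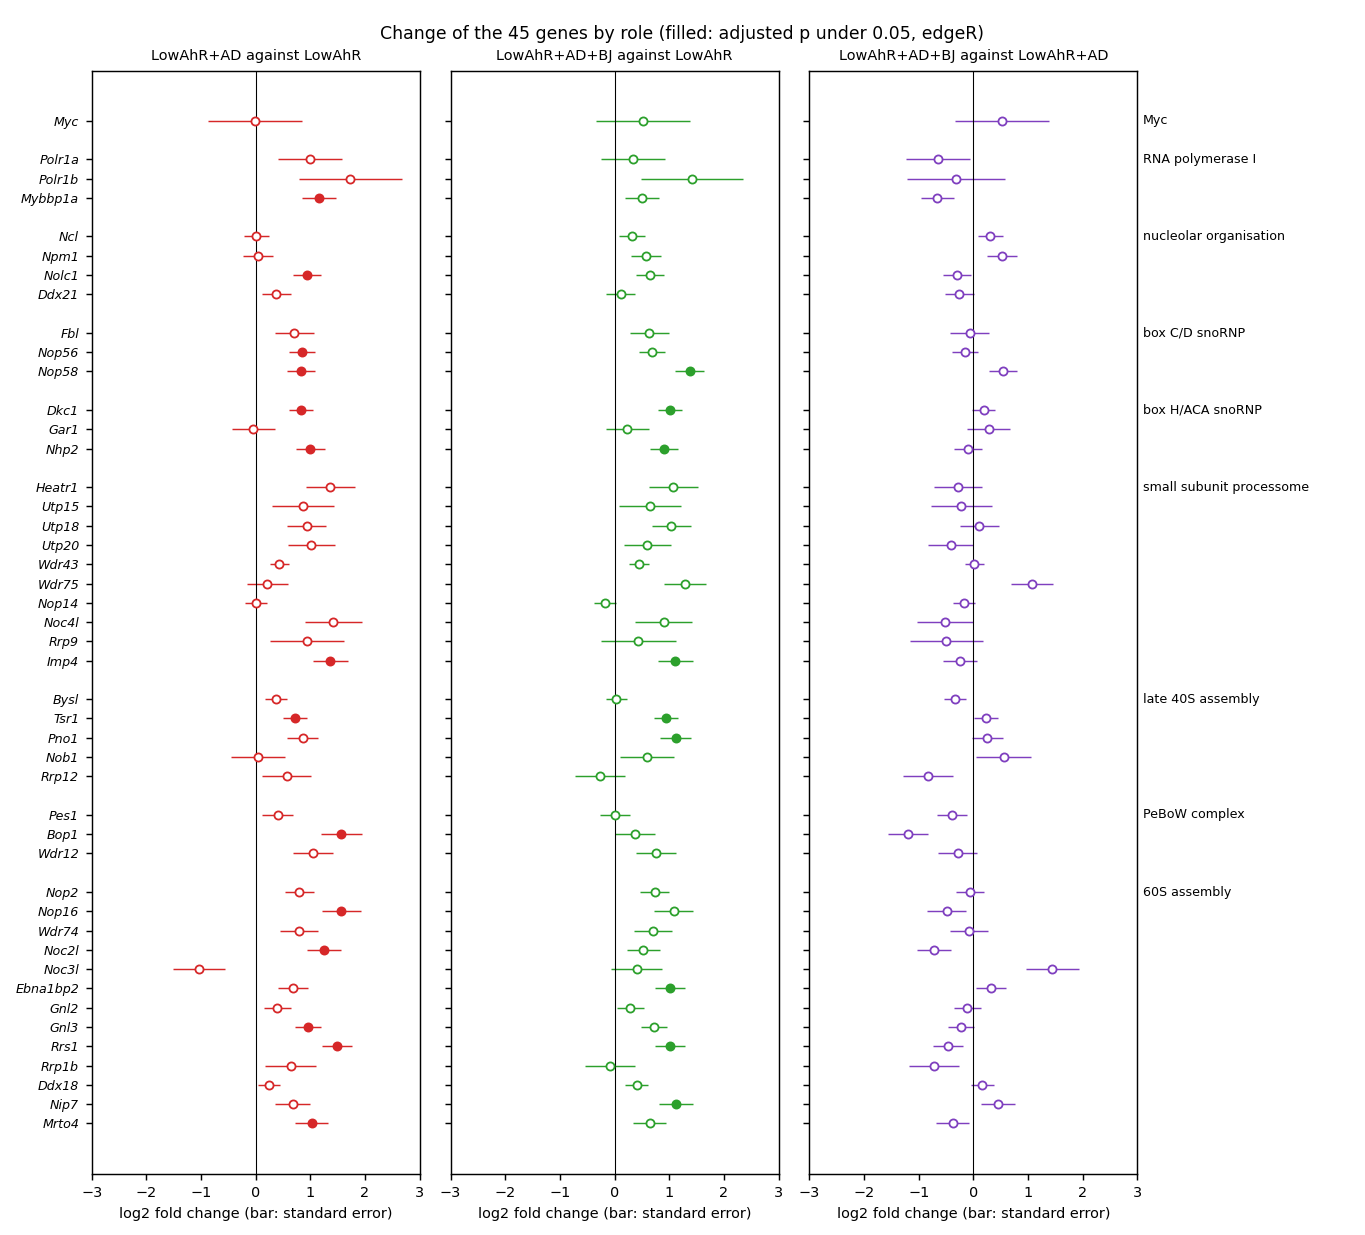
Each row is 1 of the 45 genes, grouped by role, with the log2 fold change on the horizontal axis, a bar for its standard error and a filled point where the adjusted p was under 0.05. In LowAhR+AD against LowAhR 14 points are filled, in LowAhR+AD+BJ against LowAhR 9, and in LowAhR+AD+BJ against LowAhR+AD none.

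Beside the counts by role that follow, 6.42% of all tested genes were called higher in LowAhR+AD against LowAhR and 12.3% against Cont. The box C/D particle carries the methyltransferase fibrillarin (Fbl) on the scaffold proteins Nop56 and Nop58. Of its 3 genes, 2 rose in LowAhR+AD against LowAhR and all 3 against Cont. Nop58 stood at 117, 74.9, 103 and 135 CPM in Cont, 157, 114, 107 and 152 in LowAhR, 201, 259, 243 and 237 in LowAhR+AD and 401, 457, 185 and 327 in LowAhR+AD+BJ, in the order of the replicates. Every library with DNCB was above every library without it, and LowAhR+AD+BJ spanned a wider range than LowAhR+AD. Nop58 was 1.77-fold higher in LowAhR+AD than in LowAhR (log2 fold change 0.83, SE 0.26, adjusted p = 0.0423) and 2.59-fold higher in LowAhR+AD+BJ than in LowAhR (log2 fold change 1.37, SE 0.26, adjusted p = 0.00551). Against Cont it was 3.18-fold higher in LowAhR+AD+BJ (log2 fold change 1.67, SE 0.26, adjusted p = 4.65e-04).

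Fbl, the enzyme of the particle, was measured at 15.7, 7.11, 12.1 and 17.1 CPM in Cont, 18.5, 18.9, 27.2 and 46.7 in LowAhR, 21.4, 38.4, 66.5 and 55.01 in LowAhR+AD and 43.9, 46.02, 36.9 and 46.5 in LowAhR+AD+BJ. Cont was the lowest group, with no overlap with any other, while LowAhR and LowAhR+AD overlapped. Against Cont, Fbl rose 3.49-fold in LowAhR+AD (log2 fold change 1.80, SE 0.37, adjusted p = 0.00241) and 3.33-fold in LowAhR+AD+BJ (log2 fold change 1.74, SE 0.37, adjusted p = 0.00328), but against LowAhR neither group with DNCB passed the test (adjusted p = 0.209 and 0.319). Nop56 rose in LowAhR+AD against LowAhR (log2 fold change 0.84, SE 0.24, adjusted p = 0.0279) and in both DNCB groups against Cont. The calls of Nop56 and Nop58 against LowAhR in LowAhR+AD each held in 2 of the 8 fits without 1 library, as did that of Nop56 in LowAhR+AD+BJ against Cont.

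Of the box H/ACA particle, Dkc1 encodes the pseudouridine synthase dyskerin, and Gar1 and Nhp2 are core proteins. Dkc1 stood at 86.8, 93.03, 90.2 and 88.2 CPM in Cont, 64.8, 65.1, 48.8 and 69.5 in LowAhR, 115, 130.1, 91.3 and 103 in LowAhR+AD and 129, 153, 72.97 and 146 in LowAhR+AD+BJ. The LowAhR libraries were the lowest, below all 4 Cont libraries. Dkc1 rose against LowAhR in both LowAhR+AD (log2 fold change 0.83, SE 0.22, adjusted p = 0.0187) and LowAhR+AD+BJ (log2 fold change 1.01, SE 0.22, adjusted p = 0.00963), while against Cont the estimates were 0.30 and 0.48 on the log2 scale and did not pass the test (adjusted p = 0.357 and 0.126).

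Nhp2 was at 76.3, 55.4, 63.7 and 62.97 CPM in Cont, 71.7, 76.9, 58.8 and 51.3 in LowAhR, 199.9, 113, 89.2 and 114 in LowAhR+AD and 108, 158, 77.8 and 139.9 in LowAhR+AD+BJ. It was 2.00-fold higher in LowAhR+AD than in LowAhR (log2 fold change 1.00, SE 0.26, adjusted p = 0.0183) and 1.87-fold higher in LowAhR+AD+BJ (log2 fold change 0.90, SE 0.26, adjusted p = 0.0429), with no overlap in either. The first call held in 6 of the 8 fits without 1 library and the latter in 1. Gar1 rose in 1 of the 6 comparisons, LowAhR+AD+BJ against Cont (log2 fold change 1.21, SE 0.40, adjusted p = 0.0408), also in 1 of 8 such fits.

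**Figure D3:**
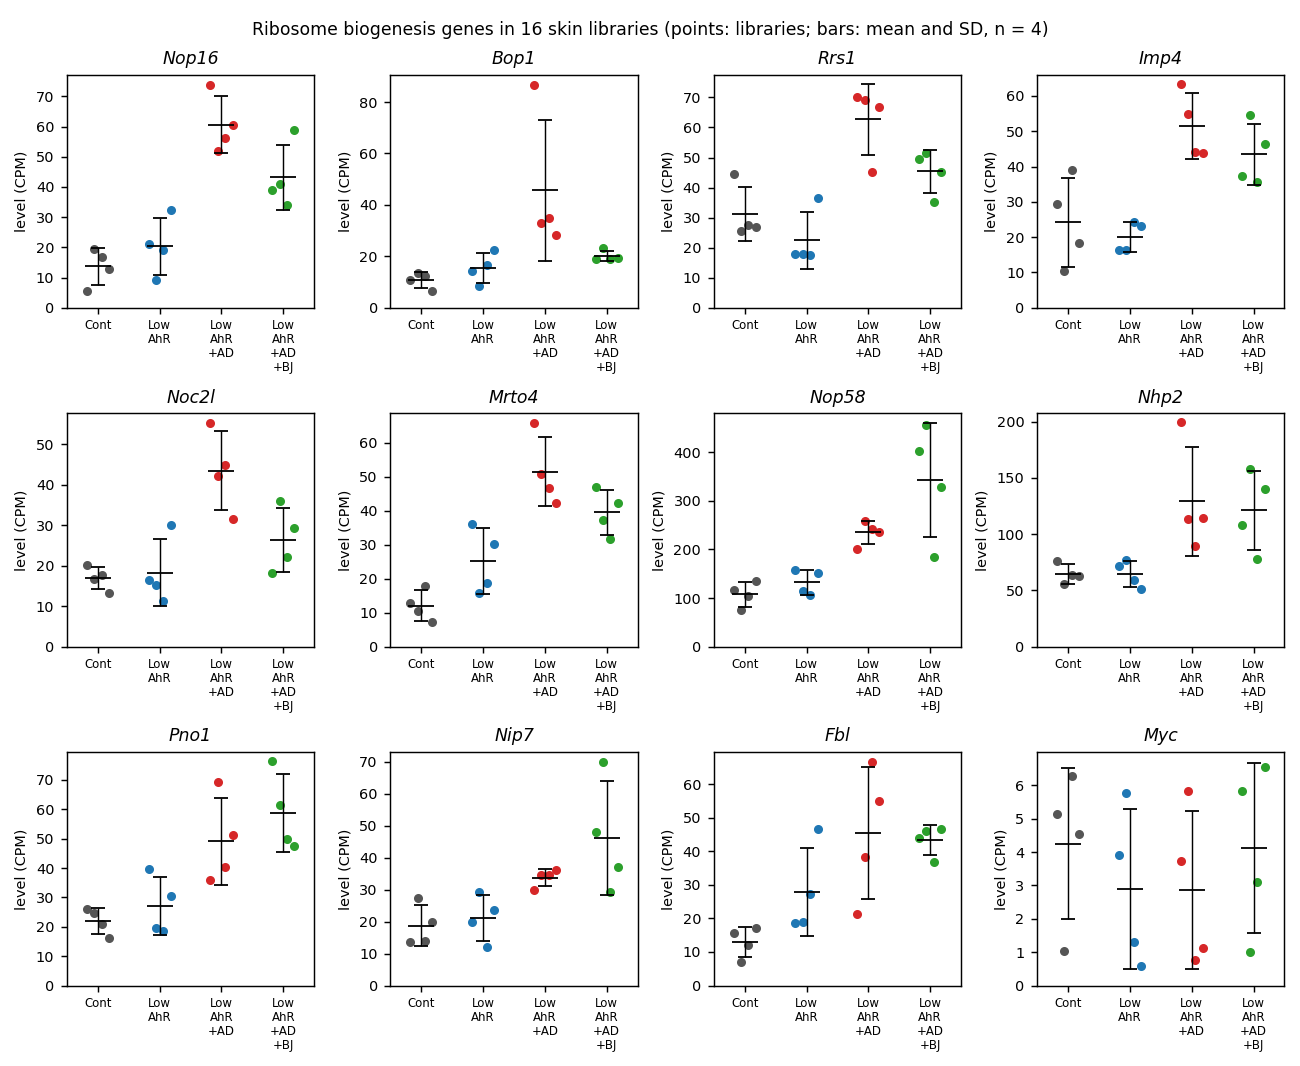
Level in CPM of 12 of the genes, with 1 point per library, the group on the horizontal axis and bars for the mean and SD of 4 libraries, on a linear scale from 0. In Nop58 and Nop16 all 8 libraries with DNCB lie above the other 8, in Bop1 LowAhR+AD replicate 1 at 86.7 CPM is far above the rest, and Myc stays under 7 CPM in every group.

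The small subunit processome is the assembly that forms on the precursor around the U3 particle. Of its 10 genes, 1 rose in LowAhR+AD against LowAhR, near the 6.42% of all tested genes called higher. It was Imp4, a protein of the U3 particle. Imp4 stood at 29.3, 10.3, 39.1 and 18.3 CPM in Cont, 16.5, 16.3, 24.3 and 23.2 in LowAhR, 63.4, 54.8, 44.2 and 43.9 in LowAhR+AD and 37.3, 54.5, 35.6 and 46.4 in LowAhR+AD+BJ. LowAhR+AD lay above both groups without DNCB, and LowAhR+AD+BJ lay above LowAhR but overlapped Cont, which was spread widely. Imp4 rose 2.57-fold in LowAhR+AD against LowAhR (log2 fold change 1.36, SE 0.32, adjusted p = 0.0110) and 2.16-fold in LowAhR+AD+BJ against LowAhR (log2 fold change 1.11, SE 0.32, adjusted p = 0.0441), the latter in 1 of the 8 fits without 1 library.

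Heatr1, a large scaffold protein of the processome, was at 7.57, 8.66, 8.51 and 4.07 CPM in Cont, 11.4, 2.18, 14.96 and 13.1 in LowAhR, 40.3, 24.9, 20.3 and 21.7 in LowAhR+AD and 22.8, 29.1, 21.1 and 14.9 in LowAhR+AD+BJ. It rose 3.72-fold in LowAhR+AD (log2 fold change 1.89, SE 0.45, adjusted p = 0.00672) and 3.05-fold in LowAhR+AD+BJ (log2 fold change 1.61, SE 0.45, adjusted p = 0.0179) against Cont. Against LowAhR the difference of LowAhR+AD was of a similar size but missed the threshold (log2 fold change 1.36, SE 0.45, adjusted p = 0.0525), although the groups did not overlap.

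Wdr43, the most abundant of the 10, was at 78.1, 83.1, 82.2 and 71.8 CPM in Cont, 81.3, 98.3, 84.6 and 104 in LowAhR, 129, 129, 121 and 118 in LowAhR+AD and 117, 164, 97.1 and 124 in LowAhR+AD+BJ. The LowAhR+AD libraries lay within 118 to 129 CPM, above all libraries without DNCB. Wdr43 rose in both DNCB groups against Cont (log2 fold change 0.66, SE 0.18, adjusted p = 0.0133 for LowAhR+AD and log2 fold change 0.67, SE 0.18, adjusted p = 0.0123 for LowAhR+AD+BJ). The other 7 genes were Utp15, Utp18, Utp20, Wdr75, Nop14, Noc4l and Rrp9, of which Wdr75 passed the test in LowAhR+AD+BJ against Cont (log2 fold change 1.27, SE 0.39, adjusted p = 0.0272), in 3 of the 8 fits without 1 library, and the others in none. Nop14 stayed between 22.1 and 41.5 CPM in all 16 libraries. Utp15, Noc4l, Rrp9 and Utp20 were low, with values under 5 CPM in at least 1 library each, and their fold changes carry standard errors of 0.42 to 0.70 on the log2 scale.

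Among the 5 factors of late 40S assembly, Tsr1 rose in LowAhR+AD against LowAhR (log2 fold change 0.71, SE 0.21, adjusted p = 0.0359) and in LowAhR+AD+BJ against LowAhR (log2 fold change 0.95, SE 0.22, adjusted p = 0.0135). Tsr1, a GTPase-like factor on the maturing small subunit, was at 48.4, 52.2, 43.3 and 53.99 CPM in Cont, 43.96, 41.7, 36.8 and 40.7 in LowAhR, 73.9, 65.97, 56.4 and 71.4 in LowAhR+AD and 74.2, 86.2, 47.5 and 107 in LowAhR+AD+BJ. All 4 LowAhR+AD libraries were above all 8 libraries without DNCB, while LowAhR+AD+BJ replicate 3 lay among the Cont values. The first of these calls held in 1 of the 8 fits without 1 library and the other in 6. Pno1, the RNA-binding partner of the nuclease Nob1, was at 25.9, 24.8, 20.98 and 16.2 CPM in Cont, 39.5, 19.6, 18.6 and 30.3 in LowAhR, 35.8, 69.2, 40.4 and 51.2 in LowAhR+AD and 76.4, 61.3, 49.9 and 47.6 in LowAhR+AD+BJ. It rose in LowAhR+AD+BJ against LowAhR (log2 fold change 1.12, SE 0.28, adjusted p = 0.0245) and in both DNCB groups against Cont (log2 fold change 1.16, SE 0.29, adjusted p = 0.00773 and log2 fold change 1.42, SE 0.29, adjusted p = 0.00237), and in LowAhR+AD against LowAhR, where LowAhR replicate 1 overlapped, it did not pass (adjusted p = 0.0531). The call of LowAhR+AD+BJ against LowAhR held in 4 of the 8 fits without 1 library, and the 2 against Cont in all 8.

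Bysl, the most abundant factor of this step, was at 48.1, 35.01, 58.4 and 45.1 CPM in Cont, 56.4, 44.7, 56.9 and 74.1 in LowAhR, 84.5, 67.4, 77.9 and 70.1 in LowAhR+AD and 60.7, 63.5, 56.2 and 57.4 in LowAhR+AD+BJ, and rose in LowAhR+AD against Cont (log2 fold change 0.68, SE 0.20, adjusted p = 0.0190). LowAhR+AD was above all Cont and all LowAhR+AD+BJ libraries, and LowAhR replicate 4 overlapped it. Nob1 and Rrp12 passed the test in none of the 6 comparisons.

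Of the PeBoW complex of Pes1, Bop1 and Wdr12, needed for the 60S subunit, 1 of 3 genes rose. Bop1 stood at 10.9, 13.4, 12.5 and 6.58 CPM in Cont, 14.2, 8.32, 16.7 and 22.6 in LowAhR, 86.7, 33.1, 35.1 and 28.2 in LowAhR+AD and 18.9, 23.1, 19.1 and 19.2 in LowAhR+AD+BJ. LowAhR+AD was above every other library of the study, with replicate 1 far above the other 3, and the LowAhR+AD+BJ libraries lay close together between 18.9 and 23.1 CPM. Bop1 rose 2.96-fold in LowAhR+AD against LowAhR (log2 fold change 1.57, SE 0.37, adjusted p = 0.0110) and 4.22-fold against Cont (log2 fold change 2.08, SE 0.38, adjusted p = 0.00111). With LowAhR+AD replicate 1 left out these values were 1.06 and 1.55 on the log2 scale and both calls held.

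Pes1, the most abundant of the complex, was at 40.6, 64.7, 50.96 and 45.7 CPM in Cont, 34.9, 43.8, 49.96 and 43.8 in LowAhR, 97.9, 49.7, 49.3 and 30.6 in LowAhR+AD and 40.7, 40.9, 40.6 and 51.04 in LowAhR+AD+BJ. LowAhR+AD held both the highest and the lowest value of the 16 libraries, and no comparison passed the test (log2 fold change 0.40, 95% interval -0.19 to 0.99, adjusted p = 0.371 for LowAhR+AD against LowAhR). Wdr12 was 2.06-fold higher in estimate in LowAhR+AD than in LowAhR without overlap, but did not pass (log2 fold change 1.05, SE 0.36, adjusted p = 0.0670).

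Of the factors of 60S assembly, the longest list by role, 5 of 13 rose in LowAhR+AD against LowAhR and 7 of 13 against Cont. Nop16, a nucleolar protein of early 60S particles, was at 5.52, 19.5, 16.9 and 12.9 CPM in Cont, 21.1, 9.22, 19.1 and 32.2 in LowAhR, 73.8, 52.02, 56.04 and 60.6 in LowAhR+AD and 39.1, 41.03, 33.9 and 58.8 in LowAhR+AD+BJ. The groups without DNCB reached 32.2 CPM at most and those with DNCB began at 33.9 CPM. Nop16 was 2.97-fold higher in LowAhR+AD than in LowAhR (log2 fold change 1.57, SE 0.37, adjusted p = 0.0100) and 4.42-fold higher than in Cont (log2 fold change 2.14, SE 0.37, adjusted p = 8.30e-04). In LowAhR+AD+BJ it was higher than in Cont (log2 fold change 1.65, SE 0.37, adjusted p = 0.00442), while against LowAhR it missed the threshold (log2 fold change 1.08, SE 0.36, adjusted p = 0.0803).

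Rrs1, a factor that helps to bring the small 5S rRNA into the 60S particle, was at 44.7, 25.7, 27.6 and 26.8 CPM in Cont, 17.9, 17.8, 17.6 and 36.5 in LowAhR, 69.98, 69.2, 45.2 and 66.7 in LowAhR+AD and 49.6, 51.4, 35.3 and 45.1 in LowAhR+AD+BJ. LowAhR+AD was above every library without DNCB, replicate 3 by little, and overlapped LowAhR+AD+BJ through that replicate. Rrs1 had the smallest adjusted p of the 45 in LowAhR+AD against LowAhR (log2 fold change 1.48, SE 0.28, adjusted p = 0.00300), and it also rose in LowAhR+AD+BJ against LowAhR (log2 fold change 1.01, SE 0.28, adjusted p = 0.0346), where LowAhR replicate 4 overlapped and the call held in 2 of the 8 fits without 1 library. Against Cont it rose in LowAhR+AD (log2 fold change 1.01, SE 0.28, adjusted p = 0.0141).

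Noc2l, which with Noc3l accompanies 60S particles out of the nucleolus, was at 20.2, 16.8, 17.6 and 13.3 CPM in Cont, 16.4, 15.4, 11.2 and 30.2 in LowAhR, 55.4, 42.3, 45 and 31.5 in LowAhR+AD and 18.2, 35.9, 22.1 and 29.4 in LowAhR+AD+BJ. LowAhR+AD lay above all libraries without DNCB, and LowAhR+AD+BJ overlapped both sides. Noc2l rose in LowAhR+AD against LowAhR (log2 fold change 1.25, SE 0.31, adjusted p = 0.0142) and Cont (log2 fold change 1.36, SE 0.31, adjusted p = 0.00510), and in LowAhR+AD+BJ it passed against neither (adjusted p = 0.343 and 0.165).

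Mrto4, which occupies the place of a stalk protein on the precursor of the 60S subunit, was at 12.8, 10.47, 17.9 and 7.18 CPM in Cont, 36.3, 15.9, 18.6 and 30.3 in LowAhR, 65.8, 50.95, 46.8 and 42.4 in LowAhR+AD and 47, 37.2, 31.7 and 42.3 in LowAhR+AD+BJ. Cont and LowAhR overlapped through Cont replicate 3, and LowAhR+AD was above both. Mrto4 rose 2.04-fold from LowAhR to LowAhR+AD (log2 fold change 1.03, SE 0.30, adjusted p = 0.0320), a call that held in 4 of the 8 fits without 1 library. It rose 4.25-fold from Cont to LowAhR+AD (log2 fold change 2.09, SE 0.31, adjusted p = 2.93e-04), the smallest adjusted p among the 45 in any comparison. In LowAhR+AD+BJ it was 3.27-fold above Cont (log2 fold change 1.71, SE 0.31, adjusted p = 0.00117).

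Nip7, an RNA-binding factor of 60S maturation, was at 13.7, 27.5, 13.8 and 19.9 CPM in Cont, 19.7, 29.2, 11.97 and 23.5 in LowAhR, 29.8, 34.5, 34.5 and 36.1 in LowAhR+AD and 48.1, 70.1, 29.1 and 37.1 in LowAhR+AD+BJ. LowAhR+AD kept clear of both groups without DNCB by little, and LowAhR+AD+BJ replicate 3 overlapped LowAhR. Nip7 rose in LowAhR+AD+BJ against LowAhR (log2 fold change 1.13, SE 0.32, adjusted p = 0.0400) and Cont (log2 fold change 1.30, SE 0.32, adjusted p = 0.00816), the first of them in 2 of the 8 fits without 1 library. In LowAhR+AD its differences did not pass (adjusted p = 0.169 against LowAhR and 0.0641 against Cont). Ebna1bp2 showed the same calls as Nip7, with log2 fold changes of 1.01 and 1.03, called in 2 and 7 of those 8 fits.

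Gnl3 and Gnl2, a pair of nucleolar GTPases, were both among the more abundant genes of the step. Gnl3 was at 40.7, 50.3, 57.7 and 53.99 CPM in Cont, 63.2, 29.95, 59.5 and 65.2 in LowAhR, 93.03, 145, 92.2 and 90.7 in LowAhR+AD and 80.7, 94.7, 87.9 and 95.9 in LowAhR+AD+BJ. All libraries with DNCB were above 80 CPM and all without it below 66 CPM. It rose in LowAhR+AD against LowAhR (log2 fold change 0.95, SE 0.24, adjusted p = 0.0145) and in both DNCB groups against Cont (log2 fold change 1.06, SE 0.24, adjusted p = 0.00453 and log2 fold change 0.83, SE 0.24, adjusted p = 0.0202). These calls held in 7, 8 and 5 of the 8 fits without 1 library.

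Gnl2 was at 57.3, 45.2, 43.9 and 59.02 CPM in Cont, 63.2, 88.4, 51.1 and 88.1 in LowAhR, 131, 82.1, 70.1 and 99.8 in LowAhR+AD and 91.4, 120.5, 64.8 and 78.4 in LowAhR+AD+BJ. The 2 LowAhR libraries near 88 CPM overlapped both groups with DNCB, and the rises passed against Cont (log2 fold change 0.90, SE 0.25, adjusted p = 0.0154 for LowAhR+AD and log2 fold change 0.79, SE 0.25, adjusted p = 0.0324 for LowAhR+AD+BJ, the latter in 3 of the 8 fits without 1 library). Nop2, an rRNA methyltransferase, also rose against Cont in both DNCB groups, with log2 fold changes of 1.26 and 1.19. Wdr74, Rrp1b, Ddx18 and Noc3l passed the test in none of the 6 comparisons.

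Of the 3 genes of RNA polymerase I, 1 rose in LowAhR+AD against LowAhR and the median log2 fold change was 1.16, and of the 4 of nucleolar organisation 1 rose. Mybbp1a, a nucleolar protein that associates with the polymerase, was at 50.8, 27.00, 44.3 and 42.7 CPM in Cont, 37.7, 25.6, 40.5 and 46.9 in LowAhR, 152, 78.3, 51.6 and 54.9 in LowAhR+AD and 50.7, 53.9, 52.7 and 56.4 in LowAhR+AD+BJ. LowAhR+AD replicate 1 was the highest library and the other 3 were also above all 8 libraries without DNCB. Mybbp1a rose in LowAhR+AD against LowAhR (log2 fold change 1.16, SE 0.31, adjusted p = 0.0199) and Cont (log2 fold change 1.03, SE 0.31, adjusted p = 0.0221). With LowAhR+AD replicate 1 left out the differences were 0.71 and 0.57 on the log2 scale and neither passed, and the calls held in 5 and 6 of the 8 fits without 1 library. Polr1a and Polr1b, the largest subunits of the enzyme, did not pass in any comparison, and Polr1b stayed under 13 CPM in every library.

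Npm1, the nucleolar chaperone nucleophosmin and with Ncl the most abundant of the 45, was at 706, 784, 659.5 and 885 CPM in Cont, 1077, 994, 707 and 552 in LowAhR, 686, 1082, 776 and 892 in LowAhR+AD and 1293, 1613, 672 and 1373 in LowAhR+AD+BJ. The groups overlapped throughout, and LowAhR+AD against LowAhR gave log2 fold change 0.05, 95% interval -0.54 to 0.63, adjusted p = 0.938. Its sign turned under upper-quartile factors, to -0.01 on the log2 scale. Ncl (nucleolin) rose in LowAhR+AD+BJ against Cont (log2 fold change 0.75, SE 0.23, adjusted p = 0.0302), a call kept in 1 of the 8 fits without 1 library. Of the other 2 genes of nucleolar organisation, Nolc1, a chaperone of nucleolar particles, rose in LowAhR+AD against LowAhR (log2 fold change 0.94, SE 0.26, adjusted p = 0.0239, in 4 of the 8 fits without 1 library) and the helicase Ddx21 in no comparison.

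**Figure D4:**
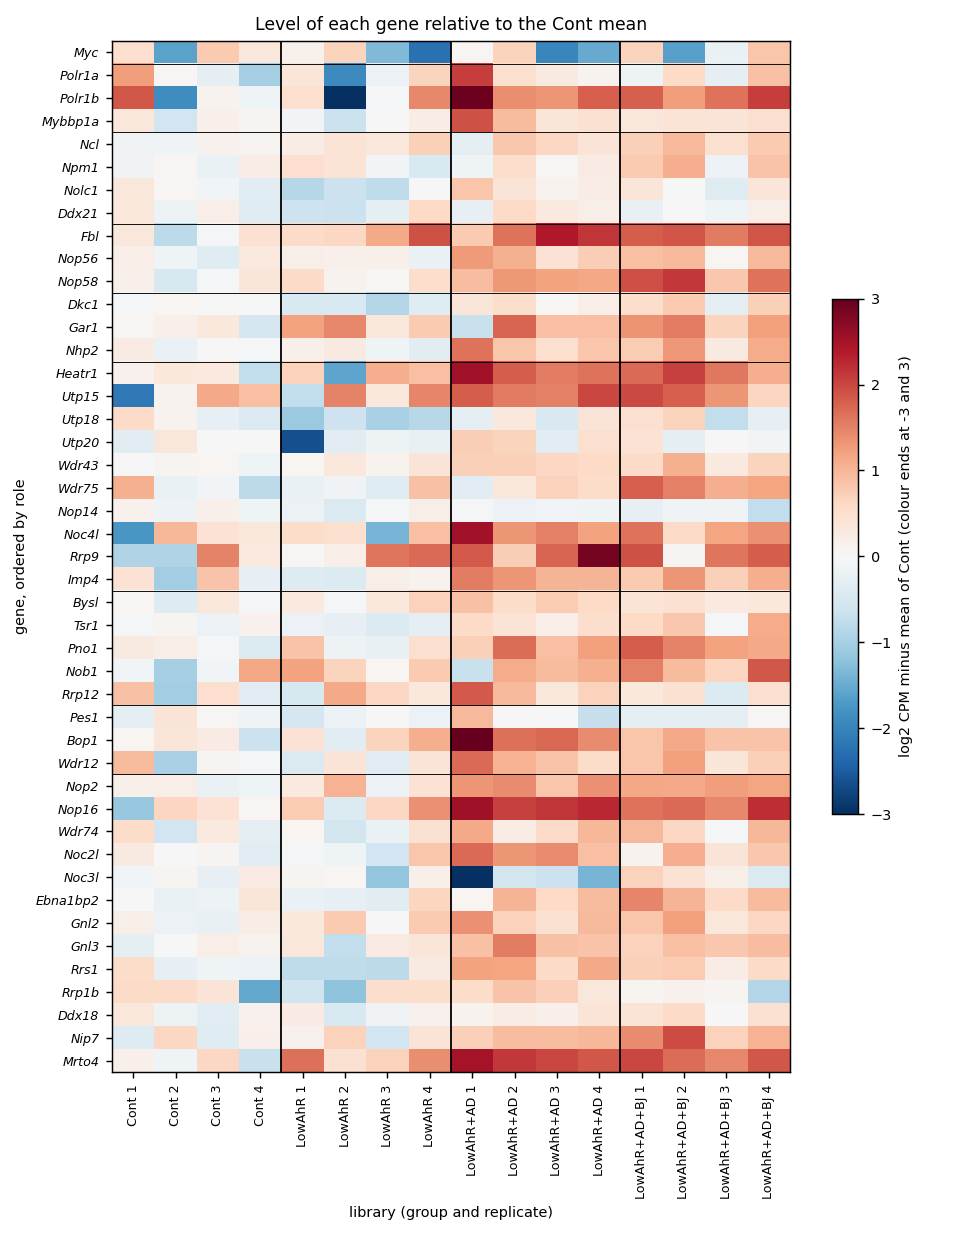
Each row is 1 of the 45 genes, ordered by role with lines between roles, each column 1 library with lines between groups, and the colour gives log2 CPM minus the Cont mean of the gene, ending at -3 and 3. Red predominates in the 8 libraries with DNCB, with 31 to 42 of the 45 genes above the Cont mean in each, against 20 to 36 in LowAhR, and Noc3l is blue in LowAhR+AD.

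Myc itself was low in whole skin. It was at 5.13, 1.03, 6.29 and 4.55 CPM in Cont, 3.92, 5.76, 1.30 and 0.597 in LowAhR, 3.74, 5.83, 0.777 and 1.12 in LowAhR+AD and 5.84, 1.02, 3.11 and 6.56 in LowAhR+AD+BJ, with as few as 5 counts in a library. The groups overlapped fully, and the difference of LowAhR+AD from LowAhR was -0.01 on the log2 scale with a 95% interval of -1.82 to 1.79 (adjusted p = 0.993), an interval that holds a rise or fall of 3-fold. Its sign turned with limma voom, to 0.02. LowAhR+AD+BJ against LowAhR gave log2 fold change 0.51, 95% interval -1.29 to 2.32, adjusted p = 0.791.

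Of 9 relatives and partners of Myc, Mxd3 rose in LowAhR+AD against LowAhR (log2 fold change 0.60, SE 0.18, adjusted p = 0.0325). Mxi1, which like Mxd3 encodes a protein that pairs with Max and is known to oppose Myc, went the other way. It was at 193, 152, 156 and 162 CPM in Cont, 92.1, 129, 78.7 and 71.5 in LowAhR, 82.7, 65.1, 53.01 and 53.2 in LowAhR+AD and 38.4, 51.1, 58.96 and 58.6 in LowAhR+AD+BJ, with Cont above every other library. Mxi1 fell from Cont to LowAhR+AD (log2 fold change -1.39, SE 0.22, adjusted p = 4.90e-04) and from LowAhR to LowAhR+AD+BJ (log2 fold change -0.84, SE 0.22, adjusted p = 0.0294). Mnt, another such partner of Max, was lower than Cont in LowAhR+AD (log2 fold change -1.08, SE 0.33, adjusted p = 0.0241) and in LowAhR+AD+BJ (log2 fold change -1.70, SE 0.33, adjusted p = 0.00189), and Mlx was higher than Cont in LowAhR+AD+BJ (log2 fold change 1.12, SE 0.32, adjusted p = 0.0188). Max, Mycn, Mycl, Mxd1 and Mxd4 passed the test in no comparison, and Mycn averaged under 10 CPM in every group. Mycn was at 0, 1.94, 3.21 and 0 CPM in Cont and 2.30, 0, 2.73 and 2.98 in LowAhR. With DNCB it was at 9.92, 12.1, 15.7 and 0.161 CPM in LowAhR+AD and 2.83, 3.97, 7.86 and 7.06 in LowAhR+AD+BJ.

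Whether BJIKT changed these genes in mice given DNCB was read from LowAhR+AD+BJ against LowAhR+AD. None of the 45 was called, and none of all 14854 genes (a background of 0%), with edgeR and with limma voom. DESeq2 called 0 of the 45 and 17 of all genes. At an unadjusted p under 0.05 there were 6 of the 45, 3 in each direction, beside 9.46% of all genes. The median log2 fold change was -0.17 over the 45 and 0.00 over all genes, and 29 of the 45 estimates were below 0.

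The 3 genes with the smallest p were Bop1, Noc3l and Wdr75, and in each the groups did not overlap, 2 of the 45 genes being higher (2.42% of all genes) and 3 lower (2.65%) in this way. Bop1 was lower in LowAhR+AD+BJ in estimate, from 45.8 ± 27.4 CPM to 20.1 ± 2.04 CPM (mean ± SD, n = 4, log2 fold change -1.19, 95% interval -1.96 to -0.42, adjusted p = 0.498, exact permutation p = 0.0286, the smallest that 4 against 4 allows). With LowAhR+AD replicate 1 left out the difference of Bop1 was -0.69 on the log2 scale.

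Noc3l was at 12.1, 13.4, 10.6 and 15.1 CPM in Cont, 13.5, 13.3, 5.46 and 14.1 in LowAhR, 1.22, 8.53, 8.01 and 4.74 in LowAhR+AD and 20.6, 17.1, 14.4 and 9.28 in LowAhR+AD+BJ. All 4 LowAhR+AD libraries were below 9 CPM, as was LowAhR replicate 3, and the other libraries were above. LowAhR+AD+BJ was 2.73-fold higher than LowAhR+AD in estimate, without passing the test (log2 fold change 1.45, 95% interval 0.44 to 2.46, adjusted p = 0.498). It was the only one of the 45 that went down in estimate by more than 1 on the log2 scale in LowAhR+AD, both against LowAhR (log2 fold change -1.04, 95% interval -2.05 to -0.04, adjusted p = 0.162) and against Cont (log2 fold change -1.19, 95% interval -2.19 to -0.18, adjusted p = 0.0863), and neither passed. Against Cont the groups did not overlap, as was so downward for 1 of the 45 and for 11.8% of all genes. The end of the Noc3l transcript has close copies in 85 other genes, so its count is uncertain.

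Wdr75, a processome protein, was at 29.5, 12.3, 13.2 and 8.14 CPM in Cont, 12.3, 13.1, 10.9 and 26.02 in LowAhR, 11.3, 17.5, 23.01 and 20.6 in LowAhR+AD and 49.4, 40.4, 29.9 and 32.2 in LowAhR+AD+BJ. All 4 LowAhR+AD+BJ libraries were above all other libraries of the study, and the difference from LowAhR+AD did not pass the test (log2 fold change 1.07, 95% interval 0.27 to 1.87, adjusted p = 0.498). Even in the abundant Npm1 the interval of this comparison was wide (log2 fold change 0.53, 95% interval -0.06 to 1.11, adjusted p = 0.555).

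The low AhR ligand diet and its bedding, without DNCB, were compared as LowAhR against Cont. With edgeR 0 of the 45 passed, and 0% of all tested genes. DESeq2 called Mrto4 (log2 fold change 1.06, adjusted p = 0.0306) and 493 of all genes, and limma voom called none. At an unadjusted p under 0.05 there were 6 of the 45, 3 higher and 3 lower, beside 13.7% of all genes, and the median log2 fold change was 0.05 over the 45 and 0.03 over all genes. Groups without overlap were seen in 3 genes upward and 2 downward, beside 5.68% and 5.63% of all genes.

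The 3 genes with the smallest p were Mrto4 (log2 fold change 1.06, 95% interval 0.42 to 1.71, adjusted p = 0.115), Fbl (log2 fold change 1.10, 95% interval 0.33 to 1.87, adjusted p = 0.170) and Utp18. Mrto4 and Fbl were higher in LowAhR, Mrto4 in 3 of 4 libraries above all of Cont and Fbl in 4 of 4 (exact permutation p = 0.0286). Utp18, a processome protein, was at 23.2, 16.7, 13.2 and 11.49 CPM in Cont, 7.03, 10.1, 7.81 and 8.59 in LowAhR, 12.9, 19.4, 11.3 and 20.4 in LowAhR+AD and 22.00, 24.8, 9.26 and 13.01 in LowAhR+AD+BJ. LowAhR lay below all Cont libraries, with an estimate of -0.94 on the log2 scale (adjusted p = 0.229). The groups with DNCB overlapped Cont, and LowAhR+AD+BJ replicate 3 overlapped LowAhR.

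A further 119 genes of the same pathway, listed by role and all tested, were set beside the 45. In LowAhR+AD against LowAhR 14 rose and 1 fell, 11.8% being higher beside 6.42% of all tested genes called higher and 6.21% called lower. The median log2 fold change was 0.48 beside 0.83 for the 45. Among the risen were Ppan (log2 fold change 1.74, SE 0.47, adjusted p = 0.0230), a 60S factor, and Nat10 (log2 fold change 1.66, SE 0.40, adjusted p = 0.0125), an rRNA acetyltransferase. Wdr46, a processome protein, was also among them (log2 fold change 1.56, SE 0.50, adjusted p = 0.0494).

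The gene that fell was Sbds, whose product frees the 60S subunit of Eif6 in the cytoplasm. Sbds was at 41.1, 29.5, 40.5 and 69.9 CPM in Cont, 80.5, 94.1, 40.5 and 70.6 in LowAhR, 16.2, 30.1, 25.96 and 17.9 in LowAhR+AD and 71.3, 40.8, 46.7 and 29.5 in LowAhR+AD+BJ. LowAhR+AD was below all LowAhR libraries (log2 fold change -1.66, SE 0.33, adjusted p = 0.00431), and in LowAhR+AD against Cont it was 0.498 of the Cont level with some overlap (adjusted p = 0.0365). LowAhR+AD+BJ overlapped both. Eif6, the factor that Sbds removes, rose in all 4 comparisons of a DNCB group with a group without DNCB, among them LowAhR+AD against LowAhR (log2 fold change 1.21, SE 0.24, adjusted p = 0.00432).

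Against Cont, 24 of the 119 rose (20.2%, beside 12.3% of all tested genes) and 1 fell (beside 9.47%) in LowAhR+AD. In LowAhR+AD+BJ 25 rose (21%, beside 11.2% of all tested genes) and 0 fell (beside 8.62%). The largest changes in LowAhR+AD were those of Nle1 (log2 fold change 2.36, SE 0.79, adjusted p = 0.0410) and Polr1e (log2 fold change 1.94, SE 0.52, adjusted p = 0.0122), the latter a subunit of RNA polymerase I, both under 20 CPM. In LowAhR+AD+BJ they were those of Polr1e (log2 fold change 2.30, SE 0.52, adjusted p = 0.00487), Nop10 (log2 fold change 1.84, SE 0.23, adjusted p = 1.16e-04), the smallest protein of the box H/ACA particle, and Cirh1a (log2 fold change 1.57, SE 0.33, adjusted p = 0.00291), a processome protein also known as Utp4. Nop10 was at 39.4, 27.4, 28.8 and 32.7 CPM in Cont, 63.98, 81.7, 51.9 and 64.8 in LowAhR, 112, 77.1, 90.9 and 93.7 in LowAhR+AD and 117, 157, 77.01 and 108 in LowAhR+AD+BJ, with LowAhR already above all of Cont.

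In LowAhR+AD+BJ against LowAhR 10 of the 119 rose (8.4%, beside 3.64% of all tested genes) and 0 fell (beside 3.12%). The risen were led by Cirh1a (log2 fold change 1.16, SE 0.32, adjusted p = 0.0368), Rsl1d1 (log2 fold change 1.13, SE 0.28, adjusted p = 0.0199) and Wdr36 (log2 fold change 1.12, SE 0.31, adjusted p = 0.0374). BJIKT on top of DNCB called 0 of the 119 with edgeR, and 0 of all tested genes. At an unadjusted p under 0.05 there were 8 of the 119, beside 9.46% of all tested genes. The diet with its bedding also called 0 of the 119 and 0 of all tested genes. At the unadjusted level there were 15 of the 119, beside 13.7% of all tested genes. By role, the medians of LowAhR+AD against LowAhR were 0.25 for 13 genes of RNA polymerase I, 0.31 for 40 of the small subunit, 0.48 for 44 of the large subunit, 0.69 for 8 of snoRNP assembly and 0.61 for 14 of the exosome and nucleases.

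The transcript Rn45s, annotated as the rRNA precursor, did not rise with the factors. It was at 33997, 25782, 23882 and 16196 CPM in Cont, 22972, 25968, 48780 and 88746 in LowAhR, 14655, 19544, 30363 and 10920 in LowAhR+AD and 9844, 9743, 16244 and 8380 in LowAhR+AD+BJ. The 2 highest values were in LowAhR, and all 4 LowAhR+AD+BJ libraries were below all LowAhR libraries. Rn45s fell in LowAhR+AD+BJ against LowAhR (log2 fold change -2.08, SE 0.44, adjusted p = 0.00963), and in LowAhR+AD against LowAhR the difference missed the threshold (log2 fold change -1.30, SE 0.43, adjusted p = 0.0556). QuantSeq primes on poly(A) tails, and what share of the precursor it reads was not tested. The precursor carries the rRNAs themselves, and whether these counts came from precursor or from mature rRNA was not tested either. Setting library sizes without Rn45s left 14, 18, 9 and 18 of the 45 risen in the same 4 comparisons.

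Markers of cell types and of the cell cycle differed in the same libraries. The summed level of 15 cell cycle genes was 271 to 365 CPM in the 8 libraries without DNCB and 507 to 938 CPM in the 8 with it, and 10 of the 15 rose in LowAhR+AD against LowAhR. The 6 basal keratinocyte markers summed to 2692 to 3667 CPM without DNCB and 4948 to 10656 CPM with it, with 3 of the 6 higher and 1 lower in LowAhR+AD against LowAhR. The 8 activated keratinocyte markers, led by keratins and S100 proteins of inflamed epidermis, summed to 627 to 1816 CPM without DNCB and 12022 to 35932 CPM with it, and 7 of the 8 rose in all 4 comparisons. S100a8 and S100a9 of that list are also neutrophil markers. The 6 neutrophil markers summed to 22.2 to 84.4 CPM without DNCB and 130.1 to 2886 CPM with it, and of the 5 tested 4 rose in LowAhR+AD against LowAhR, 2 in LowAhR+AD+BJ against LowAhR and 5 in each group against Cont. At most 2 genes of any of these 4 lists were at 0 in a library.

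The 19 hair follicle genes summed to 33.0 to 1083 CPM in Cont, 112 to 13779 CPM in LowAhR and 7684 to 37872 CPM with DNCB, with up to 10 of them at 0 in a Cont library. In LowAhR+AD 17 of the 19 rose against Cont and 1 against LowAhR. LowAhR replicate 4, the highest in follicle genes of its group, was also the one with the most ribosome biogenesis genes at the top of its group. LowAhR+AD replicate 1 was the lowest of its group in follicle genes (7684 CPM) and the highest in 23 of the 45 genes. LowAhR+AD+BJ replicate 3 was the highest of its group in follicle genes (24928 CPM) and the lowest in 28 of the 45. The 6 fibroblast markers summed to 27692 to 69550 CPM without DNCB and 3898 to 22600 CPM with it, 2 of them lower in LowAhR+AD than in LowAhR. The 12 skeletal muscle markers summed to 7811 to 23826 CPM without it and 513 to 11627 CPM with it, all 12 lower in that comparison. In it 7 of 9 adipocyte, 2 of 6 sebaceous gland and 2 of 7 T cell markers were also lower, and none of the 9 macrophage or 5 suprabasal keratinocyte markers was called. LowAhR+AD+BJ replicate 3 was the lowest of its group in cell cycle genes (507 CPM) and activated keratinocyte markers (13690 CPM). It was also lowest in basal keratinocyte markers (4948 CPM) and highest in fibroblast (20009 CPM) and skeletal muscle (11627 CPM) markers. In cell cycle genes LowAhR replicate 4 (365 CPM) and LowAhR+AD replicate 1 (795 CPM) were the highest of their groups. These libraries were also highest in basal markers (3580 and 10656 CPM) and lowest in fibroblast markers (28036 and 3898 CPM). In activated keratinocyte markers LowAhR replicate 4 was highest (1816 CPM), and LowAhR+AD replicate 1 (19990 CPM) was neither highest nor lowest. The part of these cell types in the change of the 45 genes was not tested. With library sizes set without the follicle, muscle and fat markers, 14, 18, 9 and 18 genes rose in the same comparisons.

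**Figure D5:**
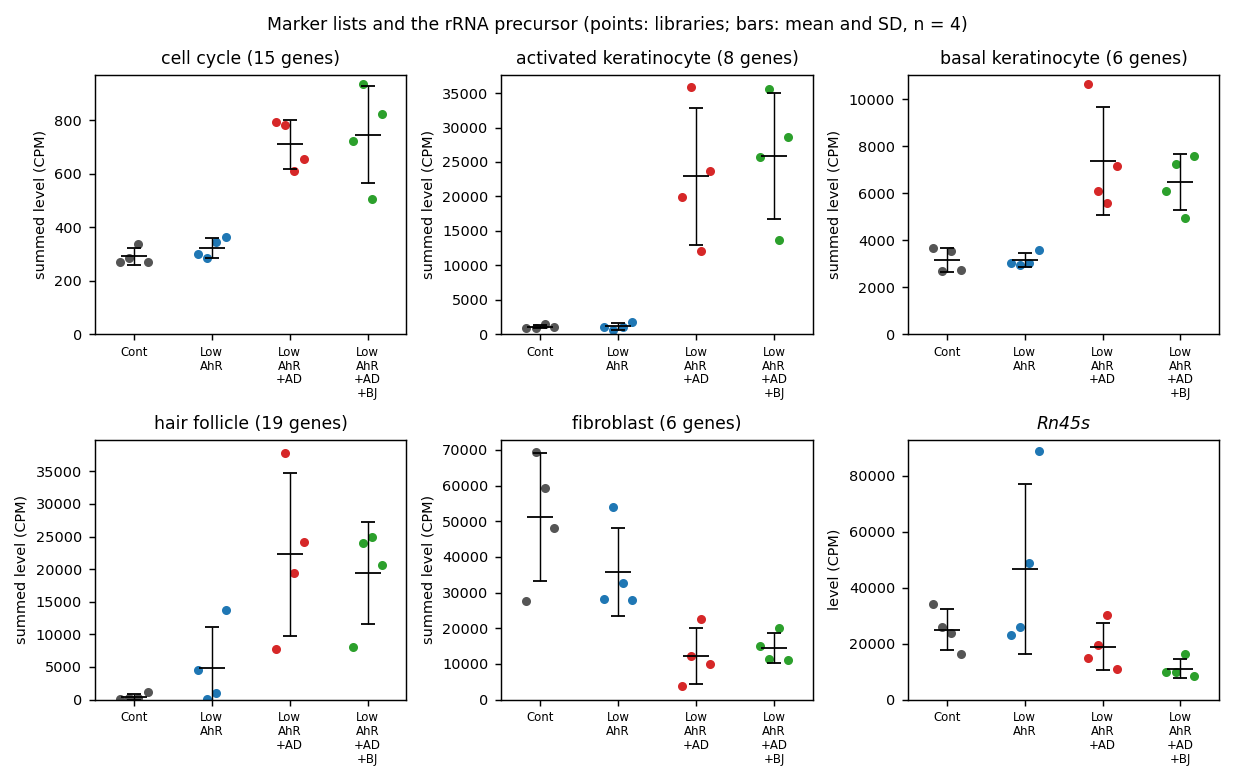
Summed level in CPM of 5 marker lists and the level of Rn45s, with 1 point per library, the group on the horizontal axis and bars for the mean and SD of 4 libraries. Cell cycle genes sit between 507 and 938 CPM in the libraries with DNCB and between 271 and 365 CPM in those without, fibroblast markers are lower with DNCB, and Rn45s is lowest in LowAhR+AD+BJ.

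Further properties of the genes that the selection did not use were looked up. In the GENCODE annotation of GRCm38, 7 of the 45 hold small nucleolar RNA genes inside their borders, 21 in all, against 1.28% of 19902 protein-coding genes of the tables and 2 of 113 other ribosome biogenesis genes. They were Ncl (chr1:86344719-86359400), Nop56 (chr2:130274430-130279313), Nop58 (chr1:59684971-59719044), Dkc1 (chrX:75095854-75109777), Wdr43 (chr17:71615895-71659031), Tsr1 (chr11:74898071-74909342) and Gnl3 (chr14:31012433-31019152). All 7 were among the 26 genes that rose in some comparison and none among the other 19, a description that was not tested. Nop56 held 5 such genes, among them Snord57 and Snord110, and Nop58 held 4, among them Snord11 and Snord70.

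Reads near the 3′ end can also belong to another gene. The last 300 bases of 11 of the 45 overlap another gene, each time one on the opposite strand. Bop1 does so with Mroh1, Tsr1 with Srr and Noc2l with Samd11. The last 300 bases of 12 have matches of at least 75 bases at 95% identity in transcripts of other genes. In Mybbp1a, Bysl and Tsr1 the only match was the overlapping gene itself (Spns2, Ccnd3 and Srr). In Noc2l 1 of the 7 matching genes was the overlapping one (Samd11). Most matches were found for Noc3l (85 other genes), Polr1b (75) and Nop58 (27). In 27 of the 45 neither was so, among them Nip7. Of the genes that rose in LowAhR+AD against LowAhR, Nop16, Rrs1, Imp4, Nolc1 and Gnl3 were among the 27. Bop1, Noc2l, Mybbp1a, Mrto4, Nhp2, Nop56, Nop58, Dkc1 and Tsr1, which rose there too, had an overlap, a match or both. How reads of several origins were counted, and whether strand was used, is not given in the sources used here, so the levels of the other 18 are uncertain by an amount that cannot be given.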

How the data were processed

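RNA of dorsal skin from 16 mice was sequenced with QuantSeq, which reads 3′ ends (NextSeq 500, single end). The authors deposited raw counts per gene for each library, 23282 rows each, made with Bowtie2 and bedtools on mm10 per the submitters' processing notes, with no versions given. Annotation, strand and the treatment of reads with several matches are not given in the sources used here. All rows named a gene.

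Rows with at least 10 counts in enough libraries and 15 in all were kept (edgeR filterByExpr, 14854 rows). Counts were scaled with TMM factors and tested with the edgeR 4.0.16 quasi-likelihood test in R 4.3.3, with all 16 libraries in 1 model of 4 groups. Benjamini-Hochberg adjustment ran over all tested rows with a threshold of 0.05, SE is that of the log2 fold change, and log2 CPM used a prior count of 2. Differences of single genes also had a two-sided exact permutation test, for which the smallest p with 4 against 4 is 0.0286. The scripts were tested on simulated counts. Each library came from a separate mouse.

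The 45 genes were listed by name and function, with no cut on values. They, the marker and pathway lists and the tests were chosen with earlier results of these data known. Values in every library were given for Myc, Rn45s, the called genes with the 5 largest rises in each comparison, the 3 smallest p where none was called and the most abundant gene of each role. Nhp2, Tsr1, Gnl3, Mxi1, Mycn, Sbds and Nop10 were added after their values were seen. Promoter windows came from RefSeq (GRCm38.p6), gene borders from GENCODE, and copies of the last 300 bases from blastn 2.17.0. The settings tried besides were DESeq2 1.42.0, limma voom 3.58.1, scaling by RLE or by the upper quartile, no filter, a filter of 10 counts in every library, only the 8 libraries compared, a replicate block, library sizes without follicle, muscle and fat markers or without Rn45s, and leaving out each library. No scaling moved the median of all genes by more than 0.09 on the log2 scale.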

Additional observations from a re-analysis of the deposited data

Results flagged for a closer look

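Of 92 sets of 4 libraries tested, 8 had a highest or lowest library whose gap to the next exceeded the 95% limit for 4 values. That limit is for normal values, while CPM were used without logs, in genes partly picked for their changes. The 8 are therefore listed without an expected rate beside them. In Bop1, LowAhR+AD replicate 1 stood at 86.7 CPM, far above its group, and LowAhR+AD+BJ replicate 2 at 23.1 CPM, above 3 libraries close together. In Rrs1, Cont replicate 1 (44.7 CPM) and LowAhR replicate 4 (36.5 CPM) were high in their groups and LowAhR+AD replicate 3 (45.2 CPM) was low. Noc3l was low in LowAhR replicate 3 (5.46 CPM), Wdr75 was high in LowAhR replicate 4 (26.0 CPM) and Pes1 was high in LowAhR+AD+BJ replicate 4 (51.0 CPM).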

How the results depend on the processing

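DESeq2 called 1 of the 45 genes in LowAhR against Cont, and a model of only the 8 libraries compared called 4 in LowAhR+AD against LowAhR. Leaving out 1 library gave 7 to 15 in LowAhR+AD against LowAhR, 17 to 20 in LowAhR+AD against Cont, 2 to 12 in LowAhR+AD+BJ against LowAhR, 8 to 20 in LowAhR+AD+BJ against Cont, and 0 in the other 2 comparisons. Without LowAhR+AD replicate 1, the library with the most rows at 0, the 4 counts were 10, 20, 10 and 19, those against LowAhR and Cont in LowAhR+AD+BJ having been added after seeing the data. For LowAhR+AD against LowAhR the sign turned in Npm1 under upper-quartile factors (-0.012) and in Myc with limma voom (0.021). Leaving out 1 library gave -0.62 to 0.56 in Myc and -0.11 to 0.20 in Npm1 there, and -0.36 to 0.28 in Myc in LowAhR+AD+BJ against Cont. The cause was not tested. Over all genes, LowAhR against Cont gave 0 calls, but 493 with DESeq2, 250 with only its 8 libraries and 45 under the strict filter. LowAhR+AD against LowAhR gave 1876, or 765 with only its 8 libraries, LowAhR+AD+BJ against LowAhR 1005, or 1666 with DESeq2, and LowAhR+AD+BJ against LowAhR+AD 0, or 17 with DESeq2. Whether the replicate numbers pair the libraries was not settled. Same-numbered deviations correlated by -0.055 to 0.167 with 3 of 24 above 0.1, and different-numbered ones by -0.146 to 0.140 with 2 of 72. The medians were -0.007 and -0.009, and 7 of 16 libraries correlated best with a library of their own number. A replicate block gave 15, 20, 8 and 18 calls in the 4 comparisons with DNCB and 0 in the other 2. Standard errors of the log2 fold change were 0.85 to 0.86 in Myc, with as few as 5 counts, and 0.21 in Nop14, and the part of depth in this was not tested. The strict filter kept 41 of the 45.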
